A study of Mus musculus with 8 samples.

Results

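Antigen presentation by the major histocompatibility complex (MHC, called H2 in the mouse) was described in common myeloid progenitors (CMPs) through 10 genes, which were H2-K1, H2-D1, B2m, Tap1 and Tap2 of class I and Cd74, H2-Aa, H2-Ab1, H2-Eb1 and Ciita of class II. They were chosen by gene name among the 34797 gene names of an Agilent mouse expression array and were read by 12 of its 55681 probes, with 2 probes each for H2-K1 and H2-Ab1. The RNA came from CMPs of untreated wildtype C57BL/6J mice, sorted from bone marrow as lineage-negative, cKit+, Sca-1-, CD34+ and FcγR low cells, and each of the 8 samples was hybridized with 1 dye to 1 array. Young mice gave 4 arrays, with an age of 2 to 3 months in the sample labels and 3 to 4 months in the series text, and old mice gave 4 arrays, with an age of 22 to 24 months and 22 to 26 months in these sources. The arrays keep the replicate numbers of their labels, 3 to 6 in young and 2 to 5 in old. The study used mice of both sexes, and the labels name the sex of no array. The study's text says that mice were analysed individually but names fewer mice per age than there are arrays, and the labels do not tell which arrays these are. All arrays were used, and p-values measure the spread between these samples.

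Class I molecules stand on nearly all nucleated cells. A heavy chain, encoded by H2-K1 or H2-D1 in this strain, pairs with the light chain beta-2 microglobulin (B2m) and shows peptides from the cytosol that the transporter of Tap1 and Tap2 carries into the endoplasmic reticulum. Class II molecules are held mainly by B cells, dendritic cells and macrophages, where an alpha and a beta chain (H2-Aa with H2-Ab1, or an H2-E pair) travel with the invariant chain Cd74 and take up peptides made in endosomes. Ciita, the class II transactivator, binds no DNA itself and acts through factors that sit on the X and Y boxes of class II promoters, while Nlrc5 has a like role for class I. Interferon-gamma is known to raise both classes.

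The promoter stretches of both classes are shown because the factors named above act on these letters. RefSeq's promoter table (GRCm38.p6) held entries for 6 of the 10 genes, which were H2-K1, H2-D1, B2m, Tap1, H2-Aa and H2-Eb1. The 180 bases before the annotated start are given for 4 of them, 5′ to 3′ on the gene's strand, at chr17:34000348-34000527 (minus strand) for H2-K1, chr17:35262914-35263093 (plus) for H2-D1, chr17:34287824-34288003 (minus) for H2-Aa and chr17:34305687-34305866 (plus) for H2-Eb1. Capitals mark matches on either strand to CTNGNAAC (X box), ATTGG (Y box), GGGATTNCC (a kappaB site) and GAANNGAAA (the core of an interferon-stimulated response element).
H2-K1: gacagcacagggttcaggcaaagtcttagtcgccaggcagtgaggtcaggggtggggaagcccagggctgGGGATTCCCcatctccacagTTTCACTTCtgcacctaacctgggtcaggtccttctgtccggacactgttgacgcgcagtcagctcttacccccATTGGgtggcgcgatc
H2-D1: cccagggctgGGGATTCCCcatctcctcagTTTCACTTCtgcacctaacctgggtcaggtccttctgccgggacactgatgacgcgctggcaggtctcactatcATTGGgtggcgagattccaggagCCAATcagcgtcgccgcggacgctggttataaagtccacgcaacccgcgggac
H2-Aa: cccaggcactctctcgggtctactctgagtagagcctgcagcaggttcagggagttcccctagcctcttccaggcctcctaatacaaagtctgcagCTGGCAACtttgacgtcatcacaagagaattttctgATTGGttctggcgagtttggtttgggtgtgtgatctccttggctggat
H2-Eb1: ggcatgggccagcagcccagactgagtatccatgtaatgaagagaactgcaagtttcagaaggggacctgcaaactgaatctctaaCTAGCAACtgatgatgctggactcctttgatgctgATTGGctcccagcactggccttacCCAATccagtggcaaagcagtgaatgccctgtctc

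In H2-Aa an X box began 84 bases before the start and a Y box followed 36 bases after the beginning of the X box. In H2-Eb1 the X box began 94 bases before the start and the distance to the Y box was 35 bases. The same order was present in the promoters of H2-DMb1, at 36 bases, and H2-Ob, at 33 bases, which encode chains of the molecules that edit class II peptides, but in neither of the 2 entries for H2-DMa, the partner of H2-DMb1. An X box with a Y box beginning 25 to 45 bases after it on the same strand was present in 37 of all 32851 promoters, or 0.113%, counted over the 250 bases before the start. The heavy chain genes H2-K1 and H2-D1 held the kappaB letters shortly before an interferon response core on the other strand, beginning 110 and 90 bases before the start in H2-K1 and 170 and 150 bases before it in H2-D1. A second entry for H2-K1 placed these matches 124 and 104 bases before its start. Neither was present in the 250 bases before the start of H2-Aa and H2-Eb1, or of the class I genes B2m and Tap1. H2-D1 also held an X box match 212 bases before the start, outside the printed stretch and without a Y box at the distance above. Of all promoters 10.9% held the X box, 33.8% the Y box, 0.822% the kappaB letters and 6.31% the interferon response core. These matches describe letters only, and whether a factor was bound was not measured.

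The probes of 7 members lie on chromosome 17 in the build of the array files, mm9, within the H2 complex. In order along the chromosome they were H2-K1 at chr17:34133055-34133114 and chr17:34133984-34134043, Tap1 at chr17:34330854-34330913, Tap2 at chr17:34353116-34353175, H2-Ab1 at chr17:34406296-34406355 and chr17:34406305-34406363, H2-Aa at chr17:34421285-34421344, H2-Eb1 at chr17:34453075-34453134 and H2-D1 at chr17:35403886-35403945. The B2m probe is at chr2:121978401-121978460 and the Ciita probe at chr16:10526568-10526627. The files do not say which exon or untranslated part a probe lies in. H2-K1 and H2-D1 belong to a family of closely similar genes, and the dimmer H2-K1 probe shares a run of 25 identical bases with a probe named for the class I gene H2-T23, so that its signal is uncertain as to the gene.

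Both H2-Ab1 probes read nearly the same stretch and are shown because they are not independent readings. They share 51 aligned bases with 1 difference, T51C, counted from the 5′ end of the first probe, which stands in capitals in the 24 bases around it.
H2-Ab1, first probe: caaataaacgagacTcagactctg
H2-Ab1, second probe: caaataaacgagacCcagactctg

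The Ciita probe is shown because of its repeated letters. It holds AAAAC 8 times in 60 bases, and its bases 15 to 44, with AAAAC in capitals, read as follows.
Ciita: AAAACAAAACAAAACgaaacAAAACAAAAC
A run of 25 bases is shared with a probe named Odz1. There were 7 other tested probes with at least 4 copies of AAAAC, Odz1 included. Array old 2 was above the probe's own median over the arrays for 2 of them and was the highest array for none. It was the highest array for the Ciita probe. The other probes hold 4 or 5 copies, against 8 in the Ciita probe, and the part of the repeat in the Ciita signal was not tested.

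Signals are given as log2 of the background-corrected spot intensity minus the 75th percentile of the array, so that 0 is the signal at that percentile, and each probe is compared only with itself across arrays. The 75th percentile lay between 352 and 565 intensity units in young and between 290 and 518 in old, and the share of probes that the software marked well above background was 55.6% to 63.2% per array. All 12 member probes were well above background on all 8 arrays. The arrays lay on 2 slides, each with 2 young and 2 old arrays. CMP markers that the sort selects for were present, with Kit and Cd34 well above background on all arrays. The probe of Ly6a, which encodes the Sca-1 antigen that the sort selects against, was also well above background on all arrays and differed by -0.73 between old and young (limma, adjusted p = 0.414).

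None of the 10 genes was called higher and none lower in old CMPs. A call required an adjusted p under 0.05 (limma, Benjamini-Hochberg over all 33479 tested probes) and a change of at least 1.5-fold, and of all tested probes 0.158% were called higher and 0.0329% lower. The mean was nevertheless above that of young for all 12 probes, with differences of 0.12 to 0.78 on the log2 scale and a median of 0.30 over the 10 genes, each by its brightest probe. Over all tested probes the median difference was -0.021, and 46.7% lay above 0. The probes share arrays and neighbouring genes, so their directions are not independent counts. At an unadjusted limma p under 0.05, only H2-Ab1 differed, with both probes, and 6.34% of all tested probes passed that limit in either direction. The methods' t-test, which the study names for 2 unpaired groups, called no member without or with adjustment. In RNA of a sorted bulk sample, a change in the share of cells that hold a transcript and a change of its amount per cell cannot be told apart.

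**Figure D1:**
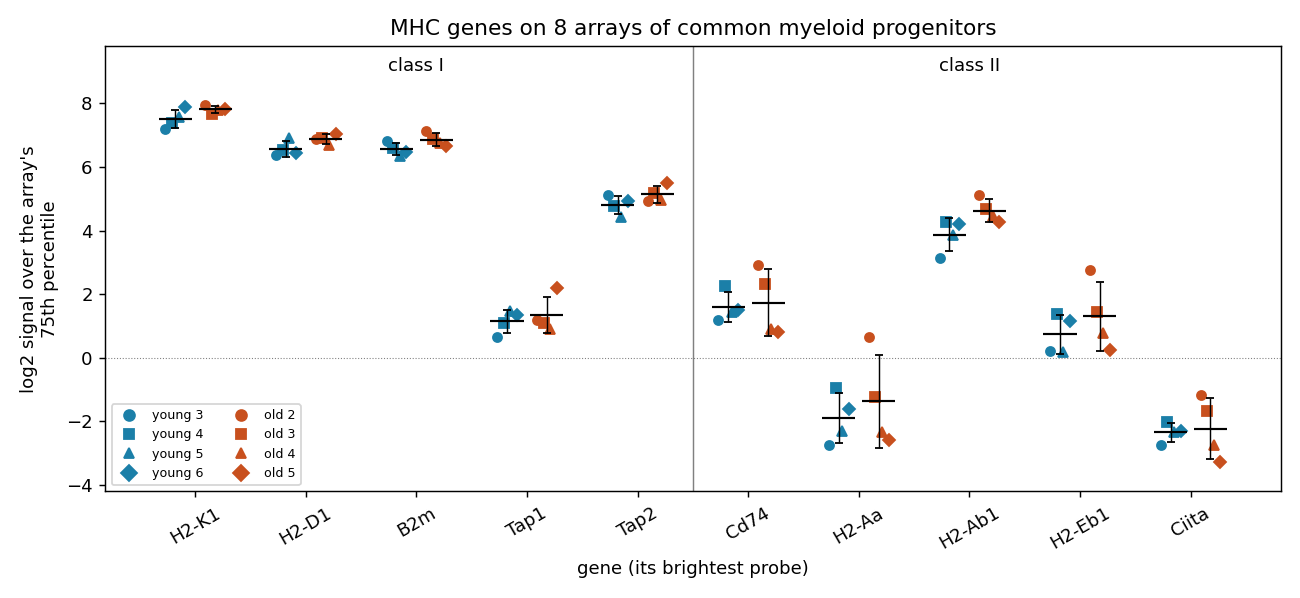
Log2 signal over the 75th percentile of the array (y axis) for the brightest probe of each of the 10 genes (x axis) in 4 young and 4 old arrays, each marker shape and colour standing for 1 array. Lines are means and bars SDs over 4 arrays. The class I genes other than Tap1 lie close together within an age, whereas H2-Aa spans 3.39 log2 units over the 8 arrays, with array old 2 on top of all class II genes. Heights are not comparable between genes.

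The heavy chain gene H2-K1 gave 7.20, 7.39, 7.56 and 7.89 on young arrays 3, 4, 5 and 6, and 7.93, 7.66, 7.79 and 7.83 on old arrays 2, 3, 4 and 5. The old arrays lay within a narrow band near the top of the young range, and young 6 was above 3 of them. The means were 7.51 ± 0.29 in young and 7.80 ± 0.11 in old (SD, n = 4 each). The difference was 0.30 (95% interval -0.14 to 0.73; limma, adjusted p = 0.994), or 1.23-fold. It was 0.19 without young 3 and 0.10 with array weights. The brighter probe stands on 10 spots, whose SD on 1 array was between 0.04 and 0.10, below the SD of 0.22 between arrays of an age. The dimmer H2-K1 probe differed by 0.35 (-0.12 to 0.82).

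H2-D1, the other classical heavy chain of this strain, gave 6.36, 6.55, 6.91 and 6.43 on young arrays 3 to 6 and 6.88, 6.89, 6.67 and 7.04 on old arrays 2 to 5. Only young 5 reached into the old range. The difference was 0.31 (-0.11 to 0.73; limma, adjusted p = 0.967). B2m gave 6.80, 6.59, 6.36 and 6.47 in young and 7.12, 6.87, 6.76 and 6.65 in old. Young 3 overlapped with old 4 and old 5, and the difference was 0.30 (-0.11 to 0.71; limma, adjusted p = 0.979). For H2-K1, H2-D1 and B2m the upper ends of the intervals correspond to 1.65-fold, 1.65-fold and 1.63-fold, so a rise of 1.5-fold is not excluded by these 8 arrays.

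The transporter subunits differed in how steady they were. Tap1 gave 0.67, 1.08, 1.46 and 1.36 in young arrays 3 to 6 and 1.17, 1.11, 0.91 and 2.19 in old arrays 2 to 5. Old 5 stood above every other array, while the other old arrays lay within the young range. The difference was 0.20 (-0.48 to 0.88; limma, adjusted p = 0.998), and without old 5 it was -0.079. The 10 spots of the Tap1 probe had an SD of at most 0.12 on any array, against 0.48 between arrays of an age. The B2m probe, with 2 spots, had a spot SD of up to 0.29 on 1 array, above its SD of 0.20 between arrays of an age. Tap2 gave 5.12, 4.76, 4.43 and 4.93 in young and 4.94, 5.18, 4.95 and 5.50 in old, again with old 5 on top. Its difference was 0.33 (-0.15 to 0.81; limma, adjusted p = 0.992), and 0.21 without young 5. Within slides it was 0.0078 on the first and 0.66 on the second, and for H2-K1 the order was the other way, with 0.57 on the first and 0.021 on the second.

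**Figure D2:**
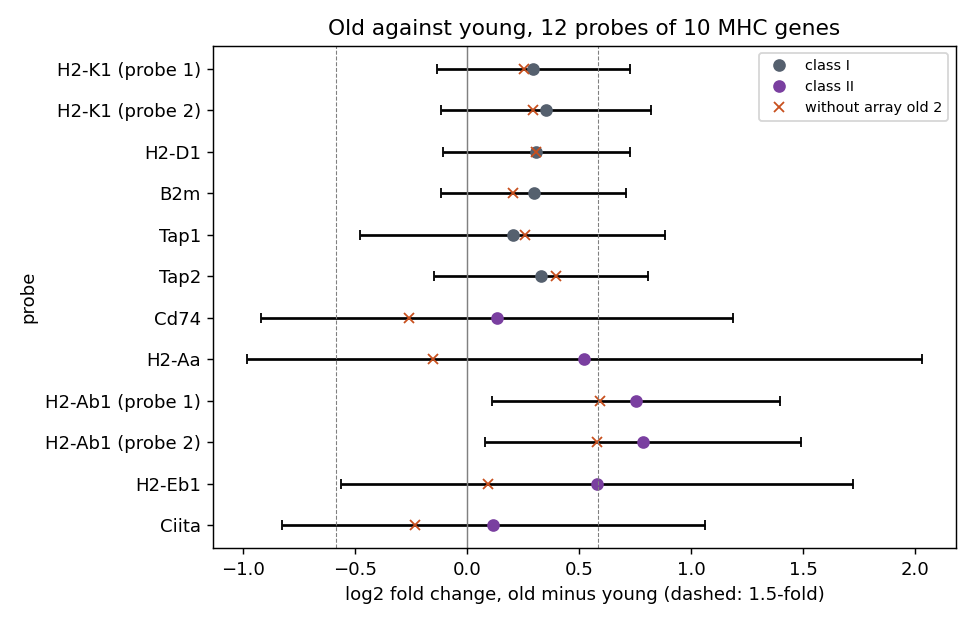
Difference of old minus young on the log2 scale (x axis) for the 12 probes of the 10 genes (y axis), with 95% intervals from limma over 4 young and 4 old arrays. Crosses give the difference without array old 2. Both H2-Ab1 intervals lie above 0 before adjustment, and Cd74, H2-Aa and Ciita pass to the other side of 0 without old 2.

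Most class II transcripts varied more between arrays of an age than the class I chains. The SD between arrays of an age was 1.18 for H2-Aa, 0.88 for H2-Eb1, 0.81 for Cd74 and 0.71 for Ciita, above 98.9%, 95.6%, 93.7% and 90.2% of all tested probes in that order, whose median SD was 0.35. For H2-K1, H2-D1 and B2m it was between 0.20 and 0.22 by their brightest probes, above 18.6%, 14.3% and 12.6% of the tested probes. H2-Ab1 with 0.44 and Tap1 with 0.48 lay between. Intensity and background differ between these probes, and the part of either in this contrast was not tested.

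H2-Ab1, the beta chain of the only class II pair that this strain makes, showed the largest difference among the members. Its brighter probe gave 3.15, 4.25, 3.85 and 4.22 on young arrays 3 to 6 and 5.10, 4.68, 4.44 and 4.26 on old arrays 2 to 5. Every old array was above every young array, but the closest pair nearly touched, with old 5 at 4.26 and young 4 at 4.25, a separation that 2.86% of all tested probes showed in this direction. The means were 3.87 ± 0.51 in young and 4.62 ± 0.36 in old (SD, n = 4 each). The difference was 0.76 (0.11 to 1.40), or 1.69-fold, and did not pass the test over all probes (limma, adjusted p = 0.625). The second probe gave 0.78 (0.08 to 1.49; limma, adjusted p = 0.678), with young 6 at 4.11 above old 5 at 3.94. Leaving out single arrays moved the difference of the brighter probe between 0.52, without young 3, and 0.88, without young 4.

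The partner chain H2-Aa did not separate the ages. It gave -2.74, -0.94, -2.31 and -1.60 on young arrays 3 to 6 and 0.65, -1.22, -2.35 and -2.58 on old arrays 2 to 5. Both the highest and the second lowest values were of old mice. After scaling, the 8 arrays spanned 10.5-fold, from young 3 to old 2. The intensity before scaling was 62.4 on young 3 and 815 on old 2. The difference was 0.52 (-0.98 to 2.03; limma, adjusted p = 0.998), and without old 2 it was -0.15.

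H2-Eb1, a beta chain whose alpha partner is H2-Ea, gave 0.22, 1.38, 0.19 and 1.14 in young and 2.77, 1.44, 0.78 and 0.26 in old. Its difference of 0.58 (-0.56 to 1.72; limma, adjusted p = 0.998) dropped to 0.09 without old 2. The probe of H2-Ea, whose promoter is deleted in the H-2b haplotype of this strain, was well above background on no array, with values between -7.35 and -6.39. The transcript of the H2-E beta chain was thus measured where that of its partner was not above background.

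Cd74, the invariant chain that occupies the peptide groove of new class II molecules, gave 1.19, 2.26, 1.45 and 1.49 in young and 2.91, 2.32, 0.90 and 0.81 in old. The old arrays held the highest pair and the lowest pair of values and the young arrays lay between them. The difference was 0.13 (-0.92 to 1.19; limma, adjusted p = 0.998), and it was -0.26 without old 2, -0.061 without old 3 and -0.0018 without young 3. Ciita gave -2.73, -2.03, -2.32 and -2.29 in young and -1.18, -1.68, -2.75 and -3.28 in old. The old arrays again held both ends of the range, and the difference was 0.12 (-0.83 to 1.06; limma, adjusted p = 0.998). Without old 2, without old 3 and without young 3 it was -0.23, -0.063 and -0.012. On the first slide Ciita differed by 0.41 and on the second by -0.18. For each of the 10 genes except Ciita, the difference was above 0 on both slides.

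Cd74, H2-Aa, H2-Eb1 and Ciita moved together from array to array within both ages, and H2-Ab1 followed them less closely. The mean of Cd74, H2-Aa, H2-Ab1 and H2-Eb1, each centred on its own mean over the arrays, was 1.53 on old 2, 0.48 on old 3, 0.41 on young 4, -0.012 on young 6, -0.38 on old 4, -0.53 on young 5, -0.64 on old 5 and -0.87 on young 3. Old arrays held the top of this order and young 3 the bottom, with the ages mixed between them. Ciita, which was not part of the mean, followed it with 1.10 on old 2 and 0.60 on old 3 at the top and old 5 at the bottom. The class I mean over its 5 genes stayed between -0.23 and 0.38.

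Pearson's r over the 8 arrays was computed for all 45 pairs of the 10 genes, with exact two-sided permutation tests. For Cd74 and Ciita r was 0.96 (permutation p = 2.48e-05, the smallest that the pairings can give; 0.00112 after adjustment over 45 pairs) and Spearman's rho was 1 (permutation p = 4.96e-05, adjusted 0.00223). Without the 2 arrays farthest from the Cd74 median, old 2 and old 3, r was 0.90, and it was 0.97 on either slide. For H2-Aa and H2-Eb1 r was 0.98 (permutation p = 0.00057, adjusted 0.0115) with rho 0.83 (permutation p = 0.0154, adjusted 0.173), and r was 0.93 without old 2 and young 4. Of the 10 class II pairs 6 passed an adjusted p under 0.05 by r and 1 by rho. None of the 10 pairs within class I and none of the 25 pairs across the classes passed by either. The 4 class II pairs that did not pass all held H2-Ab1, with r between 0.59 and 0.80. For Cd74 with H2-Ab1, r was 0.59 (permutation p = 0.119, adjusted 0.412) with rho 0.43 (permutation p = 0.299, adjusted 0.709), and it dropped to 0.03 without old 2 and old 3. Without the 2 arrays farthest from the partner's median, r of H2-Ab1 was 0.66 with H2-Aa, 0.65 with H2-Eb1 and 0.59 with Ciita. With age means removed, r of H2-Ab1 was 0.74 with Cd74, 0.85 with H2-Aa, 0.83 with H2-Eb1 and 0.75 with Ciita. Without old 2 the class II pairs had r between 0.32 and 0.93, with a median of 0.76. All values share the scaling of their array.

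**Figure D3:**
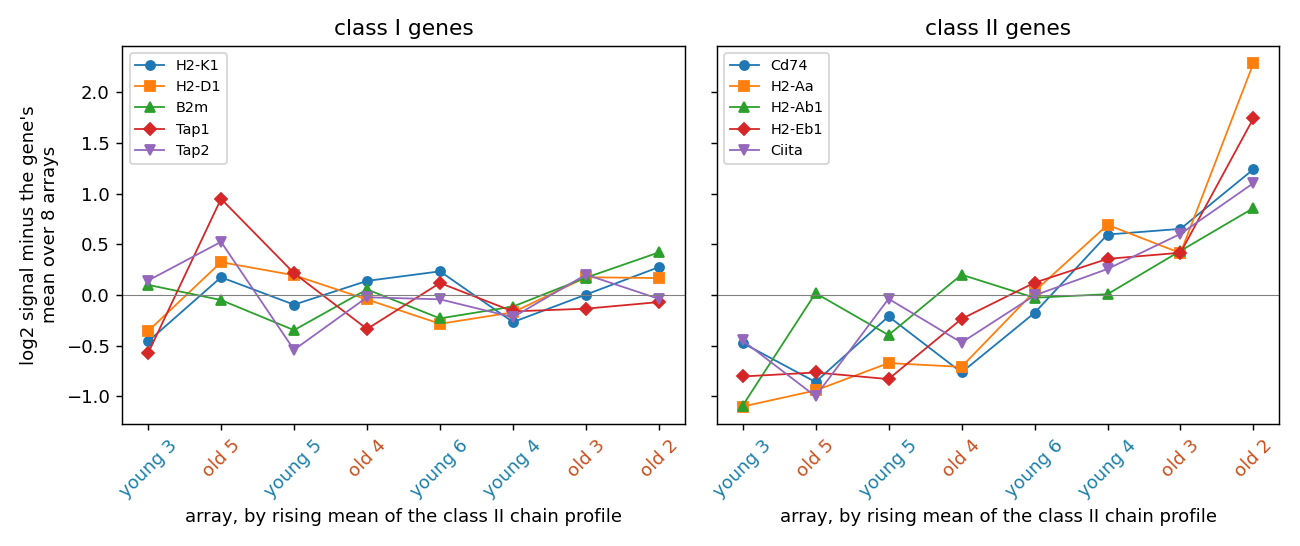
Log2 signal minus the mean of the gene over the 8 arrays (y axis), for class I genes (left) and class II genes (right), with the arrays ordered by their mean class II signal (x axis; young in blue, old in orange). All 5 class II genes have their highest value on old 2, and all but H2-Ab1 lie below 0 on the 4 arrays at the left, where H2-Ab1 departs from the others on old 5 and old 4. The class I genes stay between -0.58 and 0.95.

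The genes most like the class II profile were sought among 23147 gene names by the root mean square difference of centred log2 values over the 8 arrays. Apart from H2-Eb1 at 0.16, Cd74 at 0.28 and Ciita at 0.31, the nearest were a probe for a long intergenic transcript at chr17:35088024-35088083 (mm9) with 0.23, Ccdc36 (Iho1 in RefSeq) with 0.24 and Atpbd4 (Dph6 in RefSeq) with 0.32. The first of them lies on chromosome 17 between the probes of H2-Eb1 and H2-D1. On old 2 the long intergenic transcript stood 1.09 and Ccdc36 1.36 above its own mean. With 8 arrays and so many gene names, near profiles are a description. Cd74, H2-Aa, H2-Ab1 and H2-Eb1 make up the profile, so the nearness of H2-Eb1 and Cd74 is partly built in. H2-Aa and H2-Ab1 were not among the 8 nearest gene names.

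Marker lists of cells that carry class II were read beside this pattern. Of 15 B cell markers 8 were tested, and Pax5, Ebf1, Ms4a1 and Igll1 were well above background on no array. The summed signal of the list, in multiples of the 75th percentile of the array, was 10.2 to 13.7 in young. That range held all old arrays, with 11.0 on old 2. Cd79b made up 68.8% to 79.8% of the sum. Without Cd79b it was 2.36 to 3.94 in young and 2.32 to 3.55 in old, lowest on old 2. Of the 8 tested markers 7 had a mean below that of young, and none was called. Cd79a, a chain of the B cell receptor complex, was well above background on all 8 arrays and differed by -0.27 (limma, adjusted p = 0.998). Of 14 dendritic cell markers 10 were tested, and Xcr1, Ly75 and Cd207 were well above background on no array. This sum was 183 to 312 in young and 176 to 299 in old, but 93.2% to 96.8% of it was Siglech, a receptor of plasmacytoid dendritic cells. Without Siglech it was 11.36 to 14.21 in young and 8.45 to 12.02 in old, highest among old arrays on old 2. Of the 10 tested markers 8 had a mean below that of young and 2 above, and none was called. For 1 of the 8, all old arrays lay below all young ones. On old 2, the array with the highest class II signal, 2 of the 10 tested markers had their highest value and 3 their lowest. Itgax, the CD11c integrin of dendritic cells, and Batf3 were the 2 highest there (-0.29 and 1.92), whereas Siglech, Zbtb46 and Ccr9 were lowest. The part of dendritic cell RNA in the class II pattern was not tested.

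Of 17 markers of monocytes and macrophages on the array 12 were tested and none was called, 11 with a mean below that of young and 3 at an unadjusted limma p under 0.05. Their sum was 97.4 to 129 in young and 68.5 to 90.1 in old. Csf1r made up 65.7% to 70.9% of it. Without Csf1r the sum was 32.8 to 43.5 in young and 20.8 to 30.1 in old, highest among old arrays on old 2. Cd68 and Cd14 had their highest value of all arrays on old 2 (3.08 and 0.35), whereas Marco was lowest there (-2.40). Mertk, C1qa, C1qc, Cd163 and Vcam1 were well above background on no array. Csf1r, the receptor of the macrophage growth factor, differed by -0.57 (-0.97 to -0.16; limma, adjusted p = 0.448), with all old arrays below all young ones. Adgre1, the F4/80 antigen, differed by -0.09 and had its highest value, 1.88, on young 4. Flt3, a receptor of progenitors that give rise to dendritic cells, differed by -0.62 (limma, adjusted p = 0.868). Neutrophil granule markers summed to 763 to 1051 in young and 547 to 667 in old. Mpo made up 52.0% to 68.5% of this sum. Without Mpo it was 288 to 427 in young and 172 to 320 in old, so that the ages overlapped. Among old arrays it was highest on old 2. Megakaryocyte markers summed to 99.2 to 197 in young and 287 to 381 in old. Pf4 made up 46.5% to 65.0% of this sum. Without Pf4 it was 47.0 to 83.8 in young and 128 to 169 in old. Gp9, a subunit of a platelet receptor, was called higher in old by 1.21 (limma, adjusted p = 0.0327). Hoxb5, a transcription factor of stem cells, was called higher by 1.85 (limma, adjusted p = 0.00707). Of the 13 tested markers of stem cells and multipotent progenitors, Hoxb5 included, 7 were above 0 and 6 below, with a median of 0.27. These shifts in myeloid markers stand beside every age comparison of the MHC genes, and their part in them was not tested.

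Around the members, 10 lists of antigen presentation and interferon response were read from the same fit. Among their 128 distinct tested genes, 1 was called higher in old and none lower, with 24 at an unadjusted limma p under 0.05 in either direction, a limit that 6.34% of all tested probes passed. The median difference of these genes was 0.032, against -0.021 over all tested probes.

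**Figure D4:**
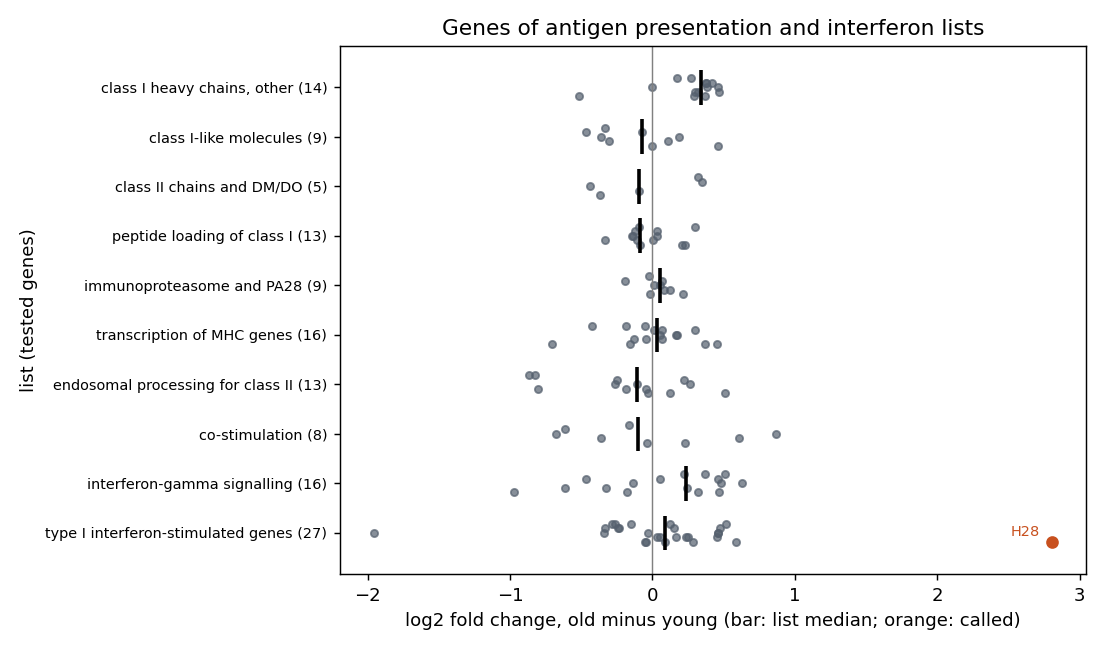
Difference of old minus young on the log2 scale (x axis) for the tested genes of 10 lists (y axis, with the number of tested genes), each gene by its brightest tested probe. Black bars are list medians and the orange point is H28, the single called gene. Class I heavy chains lie mostly above 0, and endosomal and costimulatory genes spread to both sides.

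Other class I heavy chains had a median of 0.34 over 14 tested genes, 12 of them above 0, with none called. H2-Q4 went the other way with -0.52 (limma, adjusted p = 0.841), the largest absolute difference of the list, and the H2-Q and H2-T probes may read more than 1 gene of this family. Peptide loading genes had a median of -0.09 over 13 genes, none called. Tapbp (tapasin), Calr (calreticulin) and Pdia3 (ERp57), the chaperones that load class I, differed by -0.12, -0.09 and 0.21, and the largest difference was that of the peptidase Tpp2, -0.33. The immunoproteasome list, which supplies class I peptides, had a median of 0.05 over 9 genes. Its catalytic subunits Psmb8 and Psmb9 differed by -0.02 and 0.22 and the activator subunit Psme1 by 0.12, while Psmb9 was the largest. Among 9 class I-like molecules, with a median of -0.08, Fcgrt, the neonatal Fc receptor, had the largest difference, -0.46 (limma, adjusted p = 0.791).

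On the class II side, the H2-DM and H2-DO chains, which exchange and hold back the peptide of class II, were 5 tested genes with a median of -0.10. H2-DMa differed by -0.37 (-0.91 to 0.17), H2-DMb1 by -0.10 (-0.62 to 0.42) and H2-Ob by 0.32 (-0.07 to 0.72), none called, and the largest was H2-DMb2 with -0.44. H2-DMb1 and H2-Ob, whose promoters hold the same X and Y letters as H2-Aa and H2-Eb1, spanned less over the arrays. H2-Ob was between -0.21 and 0.45, with its highest value on old 5. H2-DMb1 was between 3.00 on young 3 and 3.91 on young 4, with old 2 next to the highest at 3.78. Endosomal processing genes had a median of -0.11 over 13 genes, none called. Ctsh, a lysosomal peptidase, differed by -0.87 (-1.39 to -0.34; limma, adjusted p = 0.290), with all old arrays below all young ones. Ctss, the cathepsin that cuts the invariant chain, differed by -0.81 (-1.40 to -0.21; limma, adjusted p = 0.474), and Ifi30, a thiol reductase of endosomes, by -0.11.

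Transcription factors of MHC genes had a median of 0.03 over 16 genes, none called. Nlrc5 differed by -0.05 (-0.55 to 0.44) and Rfx5, a subunit of the X box factor, by -0.13 (-0.92 to 0.66). Irf8, a factor of monocytes and dendritic cells, had the largest difference, -0.71 (-1.19 to -0.22; limma, adjusted p = 0.394). It gave 4.45, 4.25, 5.03 and 4.90 on young arrays 3 to 6 and 4.12, 3.89, 3.76 and 4.03 on old arrays 2 to 5, without overlap, a pattern that 1.57% of all tested probes showed in this direction. Costimulatory genes had a median of -0.10 over 8 genes, none called. At an unadjusted limma p under 0.05 in either direction stood 4 of the 8, a limit that 6.34% of all tested probes passed. All old arrays lay below all young ones for Cd80 and Cd86 and above for none. Cd80, like Cd86 a ligand of CD28, differed by -0.68 (limma, adjusted p = 0.220). Tnfsf4, the OX40 ligand, differed by 0.87 (limma, adjusted p = 0.387), and Cd86, a ligand of CD28, by -0.61 (limma, adjusted p = 0.314). Cd40 was well above background on 3 young and 2 old arrays and differed by -0.36.

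Interferon-gamma signalling genes had a median of 0.23 over 16 genes, 10 of them above 0, and none was called. At an unadjusted limma p under 0.05 in either direction stood 6 of the 16, a limit that 6.34% of all tested probes passed. All old arrays lay above all young ones for 3 genes and below for 1, against 2.86% and 1.57% of all tested probes. Ifngr1, a chain of the interferon-gamma receptor, differed by -0.18 and the transcription factor Irf1 by 0.05. The other receptor chain, Ifngr2, was the gene with all old arrays below all young ones. It differed by -0.61 (-0.99 to -0.24; limma, adjusted p = 0.301). Cxcl10, a chemokine that interferon induces, had the largest difference, -0.97 (-2.13 to 0.19; limma, adjusted p = 0.921). Type I interferon-stimulated genes had a median of 0.09 over 27 genes, with H28 (Ifi44l) the single call. H28 gave -7.07, -7.25, -6.25 and -7.04 in young, where no array was well above background, and -4.45, -4.26, -4.25 and -3.43 in old, where all were. It was at least 2.34-fold higher in old, taking for each young array the weakest signal that still stood well above background there. The call (limma, adjusted p = 0.00512) rests on young values that were not well above background. The probe met the filter for testing only through the old arrays, the age in which it was higher. Mx1, another gene of this list, differed by -1.96 (limma, adjusted p = 0.262) and Irf7 by -0.15 (limma, adjusted p = 0.998), and neither was called.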

How the data were processed

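The authors labelled total RNA of 8 samples with Cy3, hybridized it to 8x60K arrays and used Feature Extraction 10.7.3.1 on the scans. The deposited array files hold background-corrected intensity values per spot on a linear scale. A deposited matrix of log2 values (GeneSpring 13, with a 75th percentile shift and a baseline) was an alternative only. Here log2 intensity minus the 75th percentile over 59305 non-control spots was computed, 141 to 230 outlier spots per array were left out and spots of a probe averaged. A probe was tested if well above background on at least 4 of 8 arrays (33479 probes, 23161 gene names). Old and young were compared with limma 3.58.1 in R 4.3.3, without covariates. The number of arrays limits the precision. The text names the 10 members, fixed genes of 10 pathway and 9 marker lists, the largest difference of each pathway list, called list genes and the nearest profiles. Atpbd4, outside this rule, was added because members filled the nearest places. Kit, Cd34, Ly6a, Siglech, Cd79b, Mpo, Pf4, Zbtb46, Ccr9, Batf3 and the marker genes absent from all arrays were named after their values were seen. The same holds for Cd68, Cd14, Marco, Ifngr2 and Cd80. Some results under this rule are not reported here. Members and lists were chosen with earlier results of these data known. In marker sums, a spot left out was filled with the mean of its age (1 value each in the neutrophil and megakaryocyte lists). On simulated data for old against young (33439 probes, 200 changed), limma recovered 25.4% of 2-fold, 80.3% of 4-fold and 96.1% of 8-fold changes, with 8 false calls. Alternatives were normexp (offset 50), quantile or median scaling, the log2 matrix, other filters, gene means, intensity trend, array weights, replicate or slide blocks, the methods' t-test and leaving out each array.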

Additional observations from a re-analysis of the deposited data

How the results depend on the processing

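No member gene was called in either direction under any of the 21 alternatives. Of the 210 differences of single members under them, 198 kept their sign and 12 changed it. With the replicate number as a block, Cd74 was -0.29, H2-Aa -0.053 and Ciita -0.21, and with array weights Tap1 was -0.017. Number 2 stands only in old and number 6 only in young, so old 2 and young 6 do not enter the differences of the block setting. The other sign changes came from leaving out an array. Without 1 array the counts of called members ranged from 0 to 0, and the differences from -0.26 to 0.44 for Cd74, from -0.15 to 0.93 for H2-Aa, from -0.23 to 0.47 for Ciita, from -0.079 to 0.35 for Tap1 and from 0.52 to 0.88 for H2-Ab1. Same-numbered arrays of both ages deviated with correlations of -0.093, -0.14 and 0.15 for numbers 3, 4 and 5, only those numbered 5 matched each other best, and nothing in the labels ties them, so the block was kept as an alternative. With this block, which old 2 and young 6 do not enter, 12 gene names were called higher and 1 lower of all, against 48 and 10. Over the other alternatives these counts ran from 0 and 0 (methods' t-test, adjusted) to 590 and 359 (unadjusted), with 190 and 88 under array weights and 75 and 21 under normexp. A shift to the median moved the difference over all tested probes to 0.097, against -0.021.

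In the pathway lists, counting any tested probe of a gene, 1 gene was called higher and none lower. This became 0 with normexp, with the filter on all 8 arrays and with the adjusted t-test, and 2 with array weights. The H28 probe, well above background on 4 arrays, is not tested under the filter on all 8, so its loss there was fixed beforehand. The unadjusted t-test called 6 higher and 8 lower. The low signal of Ciita and H28 and the 4 arrays per age limit the precision, and the causes of the other changes were not tested.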
